A study of Mus musculus with 27 samples.

Results

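The sarcomere is the contractile unit of heart and skeletal muscle, and 45 genes that encode its filaments, its M-band, its Z-disc and the factors that build or turn it over were examined for histone H3 lysine 4 (H3K4) methylation in the embryonic mouse heart. The 45 genes were listed by role, without a cutoff on any measured value, out of 22379 protein-coding genes in the GENCODE vM1 annotation of mouse assembly NCBIM37 (mm9). By role they comprised 9 thick filament genes, 9 thin filament genes, 4 genes of titin and the M-band, 18 Z-disc genes and 5 genes of sarcomere assembly and turnover. Each gene was given the methylated regions that overlapped its body or lay within 5 kb of any of its annotated transcription start sites (TSS). All 45 genes had such a region, and together they held 494 of the 358833 regions in the deposited list.

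In a sarcomere, thick filaments of myosin pull on thin filaments of actin, tropomyosin and the troponin complex. Thin filaments are anchored at the Z-disc, where alpha-actinin crosslinks them, thick filaments are held at the M-band, and titin spans from the Z-disc to the M-band. At active genes H3K4me3 and H3K4me2 mark the promoter and H3K4me1 marks mainly enhancers, and KMT2D is known mainly as a methyltransferase for the mono- and dimethyl marks. Marked domains that run from the promoter far into the gene are known for genes that define a cell type.

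The study asked how H3K4 methylation changes when *Kmt2d* is deleted in the myocardium. Whole hearts of C57BL/6 embryos at embryonic day E11.5 were compared between control embryos (Tnnt2::Cre; Kmt2d fl/+; mTmG/+) and mutant embryos (Tnnt2::Cre; Kmt2d fl/fl; mTmG/+), with 3 pools of 30 hearts per genotype for input, H3K4me1, H3K4me2 and H3K4me3. Both genotypes carried the Cre transgene and 1 copy of the mTmG reporter, and the control carried 1 floxed and 1 intact *Kmt2d* allele. The Tnnt2::Cre transgene, named after *Tnnt2*, which is among the 45 genes, was expressed in cardiomyocytes. The pooled whole hearts thus also held cells in which *Kmt2d* was not deleted. In whole hearts, a loss of a mark per cell and a smaller share of marked cells cannot be told apart. The 3 KMT2D ChIP-Exo libraries from cultured cardiomyocytes and any change in H3K4me3 were not analysed here.

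The deposited data were 3 lists of regions. The first held the 358833 regions of H3K4me1, H3K4me2 or H3K4me3 merged over libraries, the second the 2730 of them (0.761%) that the authors called lower in H3K4me1 in mutant hearts, and the third the 6699 (1.87%) called lower in H3K4me2. The lists give positions and no read counts, so no value per pool, no fold change and no test could be formed here, and the depth behind each call is unknown. A call covers a whole region, so it does not place the decrease within that region. Below, a mark that was lower over a TSS means that the called region held the TSS. Among coding genes the share called rose with the width of the region, and absence from a decreased list does not show that a mark was unchanged. The main counts below therefore stand beside the same count over coding genes and over coding genes whose regions were as wide.

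The labelled tissue was checked with marker genes. TSS regions of 5 heart muscle factors (*Nkx2-5*, *Gata4*, *Tbx5*, *Hand2* and *Mef2c*) had a median width of 25320 bp, and all 5 genes had a region in the H3K4me2-decreased list, against 28.7% of coding genes and 52.9% of those in the widest of 10 width classes. Of 4 skeletal muscle factors (*Myod1*, *Myf5*, *Myog* and *Pax7*), 3 had a region over a TSS, with a median of 2320 bp, and none had a decreased region. Markers of red blood cells, endothelium and epicardium, 3 genes each, all had a TSS region, and 2 red blood cell genes had an H3K4me2-decreased region and 1 endothelial gene an H3K4me1-decreased one. Their part in the results below was not tested.

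To place the regions on the sequence, promoters of 8 genes are shown here. The first 3 had an H3K4me2-decreased region over the TSS, *Myl3* an H3K4me1-decreased region, and the remaining 4 had no decreased region although their TSS regions were 5900 to 16680 bp wide. Each stretch ends at the RefSeq start of the gene, or where the annotated first exon begins upstream of it, and was found in the RefSeq promoter table (GRCm38.p6) and matched letter for letter to NCBIM37. It reads 5′ to 3′ on the strand of the gene. Capitals mark matches, on either strand, to the CArG box bound by SRF, the MEF2 box, the M-CAT motif CATTCC bound by TEAD factors, the GATA motif GATAAG and the E-box CAGCTG. The positions are chr2:113878624-113878761 (minus) for *Actc1*, chr19:36194335-36194484 (minus) for *Ankrd1*, chr14:21487577-21487726 (minus) for *Synpo2l*, chr9:110666032-110666149 (plus) for *Myl3*, chr1:137732761-137732910 (plus) for *Tnnt2*, chr11:5798786-5798935 (minus) for *Myl7*, chr8:126418676-126418825 (minus) for *Acta1* and chr1:75356717-75356866 (plus) for *Des*.
Actc1: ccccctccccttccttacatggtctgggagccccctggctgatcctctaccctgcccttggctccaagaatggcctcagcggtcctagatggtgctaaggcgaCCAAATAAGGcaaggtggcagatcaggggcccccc
Ankrd1: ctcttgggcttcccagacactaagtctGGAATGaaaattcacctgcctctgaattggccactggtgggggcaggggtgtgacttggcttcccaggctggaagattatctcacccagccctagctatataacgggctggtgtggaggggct
Synpo2l: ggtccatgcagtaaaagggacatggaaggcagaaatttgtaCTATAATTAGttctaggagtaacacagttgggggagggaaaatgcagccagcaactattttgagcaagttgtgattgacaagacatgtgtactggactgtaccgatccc
Myl3: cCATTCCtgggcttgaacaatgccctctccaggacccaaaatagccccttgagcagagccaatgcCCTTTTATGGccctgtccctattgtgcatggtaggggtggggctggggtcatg
Tnnt2: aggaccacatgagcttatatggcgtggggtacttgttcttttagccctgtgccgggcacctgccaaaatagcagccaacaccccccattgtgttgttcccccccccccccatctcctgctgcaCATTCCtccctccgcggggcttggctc
Myl7: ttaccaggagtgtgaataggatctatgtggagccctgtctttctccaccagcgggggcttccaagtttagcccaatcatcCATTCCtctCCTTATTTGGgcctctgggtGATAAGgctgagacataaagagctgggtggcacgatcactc
Acta1: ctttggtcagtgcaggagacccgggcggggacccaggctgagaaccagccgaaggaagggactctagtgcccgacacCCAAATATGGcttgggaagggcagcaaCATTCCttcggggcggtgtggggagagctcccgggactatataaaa
Des: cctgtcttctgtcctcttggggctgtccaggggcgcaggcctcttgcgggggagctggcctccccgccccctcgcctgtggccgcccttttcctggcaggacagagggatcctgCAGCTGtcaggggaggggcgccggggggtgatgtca

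RefSeq promoters of 250 bases were at hand for 39 of the 45 genes, and these were searched for the 5 motifs, both strands, any overlap allowed. A CArG box, the sequence CC, then 6 bases that are A or T, then GG, occurred in 8 of the 39 genes (20.5%) against 1.6% of 17492 coding genes. CATTCC occurred in 16 (41.0%) against 13.5%, CAGCTG in 12 (30.8%) against 13.8%, the MEF2 box in 6 (15.4%) against 3.12% and GATAAG in 6 (15.4%) against 7.32%. Each motif was thus present in a larger share of these genes than of coding genes, without matching for base composition. Matches occurred among genes with an H3K4me2-decreased region over a GENCODE TSS and among those without: 2 of 12 and 6 of 27 had a CArG box, 5 of 12 and 11 of 27 had CATTCC, and 3 of 12 and 9 of 27 had CAGCTG. The MEF2 box and GATAAG each occurred in 1 of 12 and 5 of 27. A match is a description of the letters and not of binding. The genes had on average 1.36 RefSeq promoters, against 1.22 over coding genes.

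All 45 genes had a TSS inside a merged region, against 15751 of the 20024 coding genes with any region. The widest TSS region of the 45 genes was 9620 bp wide in the median gene, with quartiles of 6180 and 11480 bp, against 3720 bp over coding genes, with quartiles of 2400 and 5840 bp, and the median of the 45 stood at the 90.9th percentile of the coding distribution. TSS regions of 24 genes were wider than the coding 90th percentile of 9260 bp, 38 were wider than the upper quartile, and 4 were narrower than the median. The regions ran mainly into the gene. Measured from the main TSS (the start with the most coding transcripts in the widest TSS region), they reached a median of 5820 bp downstream and 1734 bp upstream, compared with 2185 and 1185 bp over coding genes, and 40 of the 45 (88.9%) reached further downstream, as did 73.9% of coding genes. Merged regions covered a median of 61.3% of the gene body against 20.5%, and 6 genes (*Myl7*, *Tnni3*, *Tnnc1*, *Acta1*, *Tcap* and *Csrp3*) were covered from end to end.

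The widest TSS region was that of *Csrp3*, which encodes the muscle LIM protein of the Z-disc, at 21140 bp (chr7:56083986-56105125), longer than the gene of 17633 bp. It was followed by *Fhl2*, a LIM protein, with 18320 bp, *Myl7*, the atrial regulatory light chain, with 16680 bp, *Tnnt2*, cardiac troponin T, with 16540 bp, and *Tpm1*, alpha-tropomyosin, with 16300 bp. Of these 5 TSS regions, only that of *Tpm1* was in a decreased list, the H3K4me2 list. The narrowest were those of *Xirp2*, an actin-binding repeat protein, with 880 bp, *Trim54*, a muscle RING-finger protein, with 1300 bp, and *Myom2*, an M-band protein, with 2820 bp, and these 3 genes had no decreased region. The genes with the most regions were long ones: *Nebl*, which encodes nebulette, with 71 regions over 387556 bp, *Ttn*, which encodes titin, with 64 over 278568 bp, *Pdlim5*, a PDZ and LIM protein, with 43, *Myom1* with 33 and *Tmod1* with 21. The median gene had 6 regions, against 5 over coding genes, so these genes stood further from coding genes in width than in number. The TSS region also held the TSS of another coding gene at *Tnnc1* (*Nisch*), *Obsl1* (*Inha*), *Tcap* (*Pnmt*), *Cryab* (*Hspb2*) and *Unc45b* (*Nle1*), so those regions cannot be assigned to the sarcomere gene alone.

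**Figure D1:**
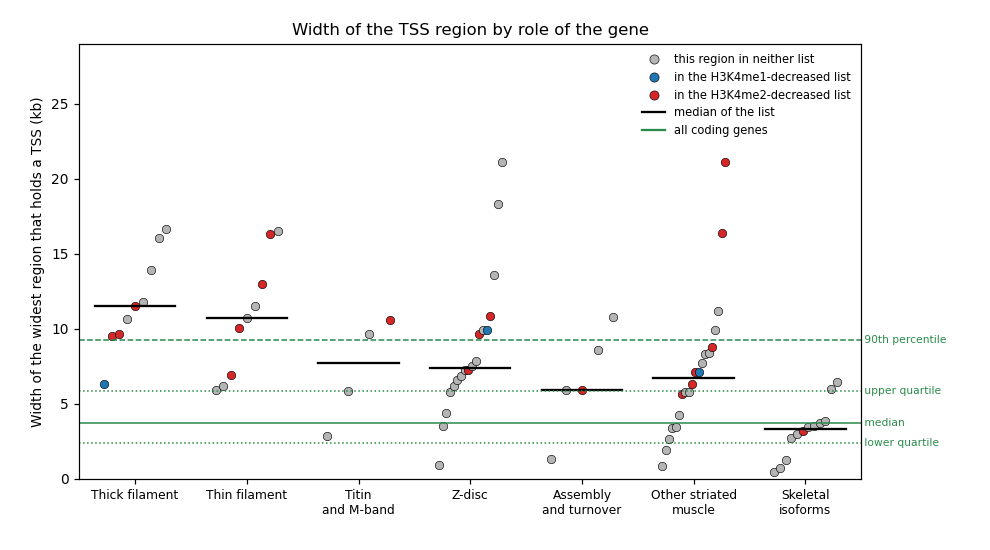
Width in kb of the widest region that holds a TSS, for each gene of the 5 roles and of 2 further lists of striated muscle genes. Points are genes, coloured by the list that this region is in, black bars are list medians and green lines are the quartiles, median and 90th percentile of 15751 coding genes. Thick and thin filament medians (11520 and 10700 bp) lie above the 90th percentile, whereas the skeletal isoforms have a median of 3320 bp.

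A decreased H3K4me2 region was found at 16 of the 45 genes (35.6%), against 28.7% of the 20024 coding genes, and a decreased H3K4me1 region at 14 (31.1%), against 7.08%. The share for H3K4me2 was thus slightly above that of coding genes, whereas the share for H3K4me1 was several-fold higher. Because wide regions are called more often, coding genes were divided into 10 classes by their widest region, and the share of other genes called in the class of each sarcomere gene was added up. By width, 21.24 of the 45 genes would have had an H3K4me2 decrease, more than the 16 seen (ratio 0.753), and 6.591 an H3K4me1 decrease, fewer than the 14 seen (ratio 2.12). In the widest class, from 9354 bp, there were 27 of the 45 genes, of which 12 (44.4%) had an H3K4me1 decrease, against 17.9% of 1976 other genes, and 13 (48.1%) an H3K4me2 decrease, against 52.9%. All of these are counts without a test. Shares by role further below stand beside all coding genes, mostly without matching for width.

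**Figure D2:**
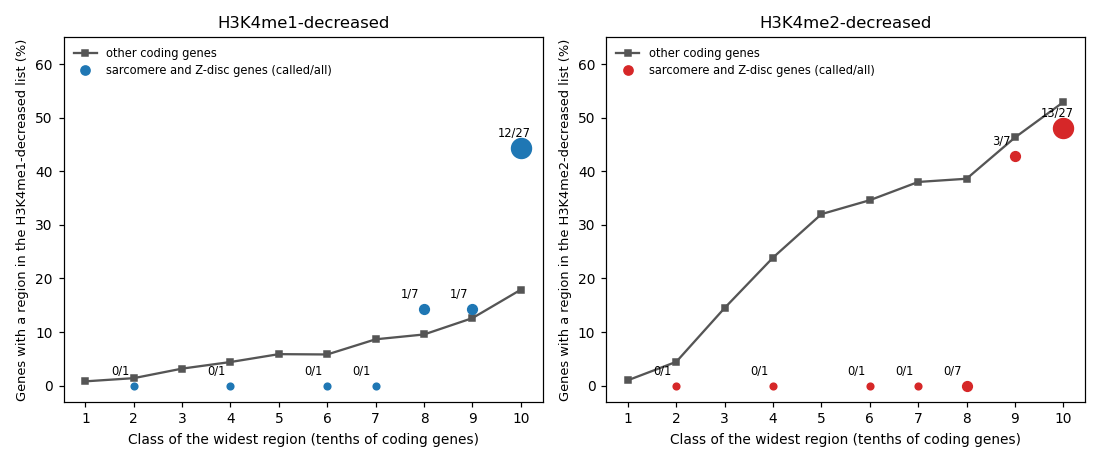
Percentage of genes with a region in the H3K4me1-decreased (left) or H3K4me2-decreased (right) list, by class of the gene's widest region. Grey squares are other coding genes, coloured points are sarcomere and Z-disc genes, larger with more genes, and the label gives called over all. In the widest class the sarcomere genes lie above other genes for H3K4me1 (12 of 27) and slightly below for H3K4me2 (13 of 27).

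The regions called for the 2 marks lay at different places. Of the 17 H3K4me2-decreased regions, 13 held a TSS of the gene itself and 4 lay in introns of the GENCODE gene models. Of the 18 H3K4me1-decreased regions, 5 held a TSS of the gene and 13 did not, and these 13 lay 1755 to 97085 bp from the main TSS, with a median of 11265 bp. The marks also differed in place at other coding genes. A TSS of any coding gene lay in 82.4% of the H3K4me2-decreased regions here, against 76.5% of 5215 at other coding genes. For H3K4me1 it lay in 33.3%, against 11.3% of 1802. Only 1 region, in *Ldb3*, was in both lists. At the level of genes, a TSS lay inside an H3K4me2-decreased region at 13 of the 45 (28.9%, against 29.2% of the 15751 coding genes with a TSS region) and inside an H3K4me1-decreased region at 4 (8.89%, against 1.29%). When only starts of protein-coding transcripts counted, the latter number was 2 of 44, against 0.986%. Both lists together reached 22 genes, with 8 in both lists, 8 with H3K4me2 alone and 6 with H3K4me1 alone, and 23 genes had neither. Over coding genes 2.86% had a region in both lists, against 17.8% of the 45, and by width class 3.4 of the 45 would have had one, against the 8 seen.

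Regions were also compared by width and place together. Among merged regions of coding genes that held no coding TSS and were 5000 to 8000 bp wide, 6 of 17 regions of sarcomere genes had an H3K4me1 decrease, against 7.16% of 2150 other regions. Below that width the counts lay near those of other regions, with 2 of 46 against 3.83% from 2000 to 5000 bp and 3 of 356 against 0.51% under 2000 bp. From 8000 bp there were 4 such regions, of which 1 was decreased, against 10.3%. Among regions that held a coding TSS, an H3K4me2 decrease was found in 9 of 26 from 8000 bp, against 39.5% of 1820 other regions, in 4 of 19 from 5000 to 8000 bp, against 33.4%, and in 1 of 12 from 2000 to 5000 bp, against 25.2%. Under 2000 bp it was found in 0 of 14, against 5.06%. In the same regions over a coding TSS, an H3K4me1 decrease was found in 2 of 26 from 8000 bp, against 3.46%. It was found in 1 of 19 from 5000 to 8000 bp, against 1.53%, and in 2 of 12 from 2000 to 5000 bp, against 0.852%. Under 2000 bp it was found in 1 of 14, against 0.545%.

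**Figure D3:**
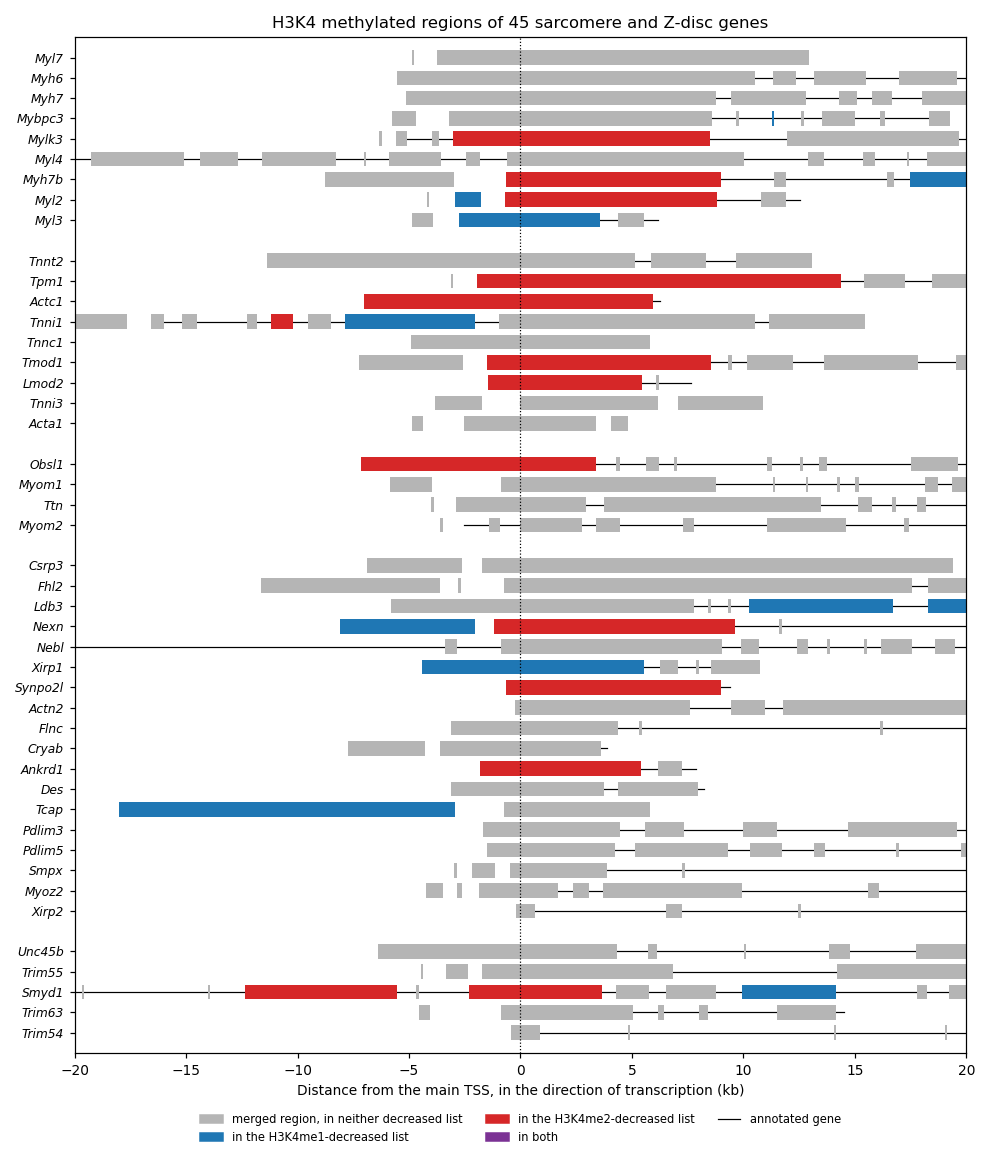
Merged regions from 20 kb upstream to 20 kb downstream of the main TSS of the 45 genes, grouped by role and ordered by width of the TSS region, with distance in kb in the direction of transcription. Regions that run past the window are clipped, and thin lines are annotated genes. Regions wholly outside the window are not drawn. Among these are decreased regions of *Tmod1*, *Actn2*, *Fhl2*, *Myom1* and *Nebl*, and the region of *Ldb3* in both lists. Of the regions drawn, H3K4me2-decreased ones (red) lie mostly over the TSS and H3K4me1-decreased ones (blue) mostly beside it.

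Thick filament genes comprised the myosin heavy chains, the light chains, cardiac myosin-binding protein C and the myosin light chain kinase of heart. An H3K4me2-decreased region held the TSS of 3 of the 9 (33.3%, against 28.7% of coding genes with an H3K4me2-decreased region), and 4 (44.4%, against 7.08%) had an H3K4me1 decrease. The former were *Myl2*, the ventricular regulatory light chain (9520 bp, chr5:122550246-122559765), *Myh7b*, a slow-type myosin heavy chain (9620 bp), and *Mylk3*, the cardiac kinase of the light chain (11520 bp). At *Myl2* a separate region of 1180 bp that ended 1755 bp upstream of the TSS was in the H3K4me1-decreased list, and at *Myh7b* a region of 2860 bp over an internal TSS, 17.5 kb downstream of the main start, was in that list as well. Both RefSeq starts of *Myl2* lie further upstream, at 122542733 and 122543198, outside the decreased TSS region, and by that gene model the 1180 bp region lies inside the gene. *Myl3*, the ventricular essential light chain, had an H3K4me1 decrease over its own TSS, in a region of 6320 bp (chr9:110663406-110669725) that was not in the H3K4me2 list. *Mybpc3*, which encodes myosin-binding protein C, had an H3K4me1-decreased intronic region of 60 bp, a width that no region of the 45 genes went below. Of the main cardiac heavy chains, *Myh6* (alpha) had a TSS region of 16060 bp and *Myh7* (beta) one of 13920 bp. Neither these genes nor the atrial light chains *Myl4* (10640 bp) and *Myl7* (16680 bp) had a region in either list. That does not show that their marks were unchanged. The RefSeq start of *Myl4*, at 104411977, lies upstream of the 10640 bp region. It falls in another region of 6920 bp, which also held the TSS of another coding gene and was in neither list. The 16060 bp region over the *Myh6* TSS also reaches the 3′ end of *Myh7* and was counted once. Ventricular light chains were thus in the lists and atrial ones not, over 2 genes each.

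Thin filament genes held 5 of 9 with an H3K4me2 decrease (55.6%, against 28.7% of coding genes) and 2 with an H3K4me1 decrease (22.2%, against 7.08%). By width, 52.9% of other genes were called for H3K4me2 in the class of *Actc1*, *Tpm1*, *Tmod1*, *Tnni1*, *Tnnt2* and *Tnnc1*. In the class of *Lmod2* the share was 46.3%, and in that of *Tnni3* and *Acta1* it was 38.6%. *Actc1*, cardiac alpha-actin and the main actin of the heart, had 1 region of 12960 bp (chr2:113873346-113886305) that covered 94.8% of the gene, and it was in the H3K4me2 list. The TSS region of *Tpm1* (16300 bp, chr9:66882846-66899145) was in that list, and so were those of *Tmod1*, which caps the pointed ends of thin filaments (10020 bp), and *Lmod2*, which lengthens them (6920 bp). *Tmod1* also had 3 H3K4me1-decreased regions 23.0, 43.8 and 60.1 kb downstream of that start, of 5560, 160 and 3560 bp. The latter 2 of these held an internal TSS. Of the troponin genes, only *Tnni1*, the slow skeletal troponin I that the embryonic heart uses, had decreased regions. They were an intronic region of 960 bp in the H3K4me2 list and a region of 5840 bp in the H3K4me1 list, 10.2 and 2.03 kb upstream of the main start, while its TSS region of 11480 bp was in neither. *Tnnt2* (16540 bp), *Tnnc1*, troponin C (10700 bp), *Tnni3*, cardiac troponin I (6180 bp), and *Acta1*, skeletal alpha-actin (5900 bp), had no decreased region. The annotated start of *Tnnt2* lies inside its region at 11386 bp from the upstream end, and its RefSeq start lies upstream of that.

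In the titin and M-band group 2 of 4 genes had an H3K4me2 decrease, against 28.7% of coding genes. An H3K4me1 decrease was found at 1 of the 4, against 7.08%. *Obsl1*, a cytoskeletal linker, had an H3K4me2 decrease over the TSS, in a region of 10560 bp that also held the TSS of *Inha*, a subunit of inhibin. *Myom1*, myomesin, had an H3K4me2-decreased intronic region of 60 bp and an H3K4me1-decreased region of 5320 bp that lay 97.1 kb downstream of the TSS. That region was the most distant of the 13 that held no TSS. *Ttn* had 64 regions covering 15.3% of the gene and *Myom2* had 12, and none of these was in a list.

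Z-disc genes held 5 of 18 with an H3K4me2 decrease (27.8%, near the 28.7% of coding genes) and 6 with an H3K4me1 decrease (33.3%, against 7.08%), and 9 had either. H3K4me2 was lower over a TSS of *Nexn*, nexilin, an actin-binding protein (10840 bp), of *Synpo2l*, which encodes the Z-disc protein CHAP (9660 bp, covering 95.6% of the gene and lying within 5 kb of *Myoz1*), of *Ankrd1*, the stretch-responsive protein CARP (7240 bp, chr19:36188926-36196165), and of *Nebl*. At *Nebl* the decreased region was not the widest TSS region of 9940 bp but 1 of 3760 bp over the most upstream start of the gene. H3K4me1 was lower over the TSS of *Xirp1*, an actin-binding repeat protein of the Z-disc and intercalated disc (9940 bp, chr9:119927186-119937125). In the others the H3K4me1 decrease lay away from the TSS. It lay 37.7 kb downstream in *Actn2*, which encodes alpha-actinin, in a region of 10400 bp that was wider than the TSS region of 7860 bp, 38.4 kb downstream in *Fhl2* (920 bp), and in 3 regions 10.2, 18.3 and 38.0 kb downstream in *Ldb3*, which encodes the PDZ and LIM protein cypher (6480, 6440 and 2640 bp). At *Nexn* it lay 2.02 kb upstream (6060 bp), and at *Tcap*, the titin cap telethonin, 2.96 kb upstream in a region of 15040 bp that held the TSS of *Stard3*. Neither list had a region of *Csrp3*, *Des* (the intermediate filament desmin, 6840 bp), *Flnc* (filamin C, 7500 bp), *Cryab* (the chaperone alpha-B-crystallin, 7240 bp), *Pdlim3*, *Pdlim5*, *Myoz2*, *Smpx* or *Xirp2*.

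Of the 5 assembly and turnover genes, only *Smyd1*, a heart and skeletal muscle methyltransferase that binds myosin, had decreased regions. They were a TSS region of 5940 bp and a region of 6820 bp 5.53 kb upstream of the main TSS in the H3K4me2 list, the latter over a TSS of *Krcc1*, and an intronic region of 4200 bp 9.95 kb downstream in the H3K4me1 list. The RefSeq gene is 48342 bp long, against 108294 bp in GENCODE, and starts at 71212275. By that model the 6820 bp region lies upstream of *Smyd1* and not in an intron. The myosin chaperone *Unc45b* (10760 bp), and the RING-finger genes *Trim54*, *Trim55* (8560 bp) and *Trim63* (5900 bp) had none. For each mark 1 of the 5 genes was thus called, against 28.7% of coding genes for H3K4me2 and 7.08% for H3K4me1.

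**Figure D4:**
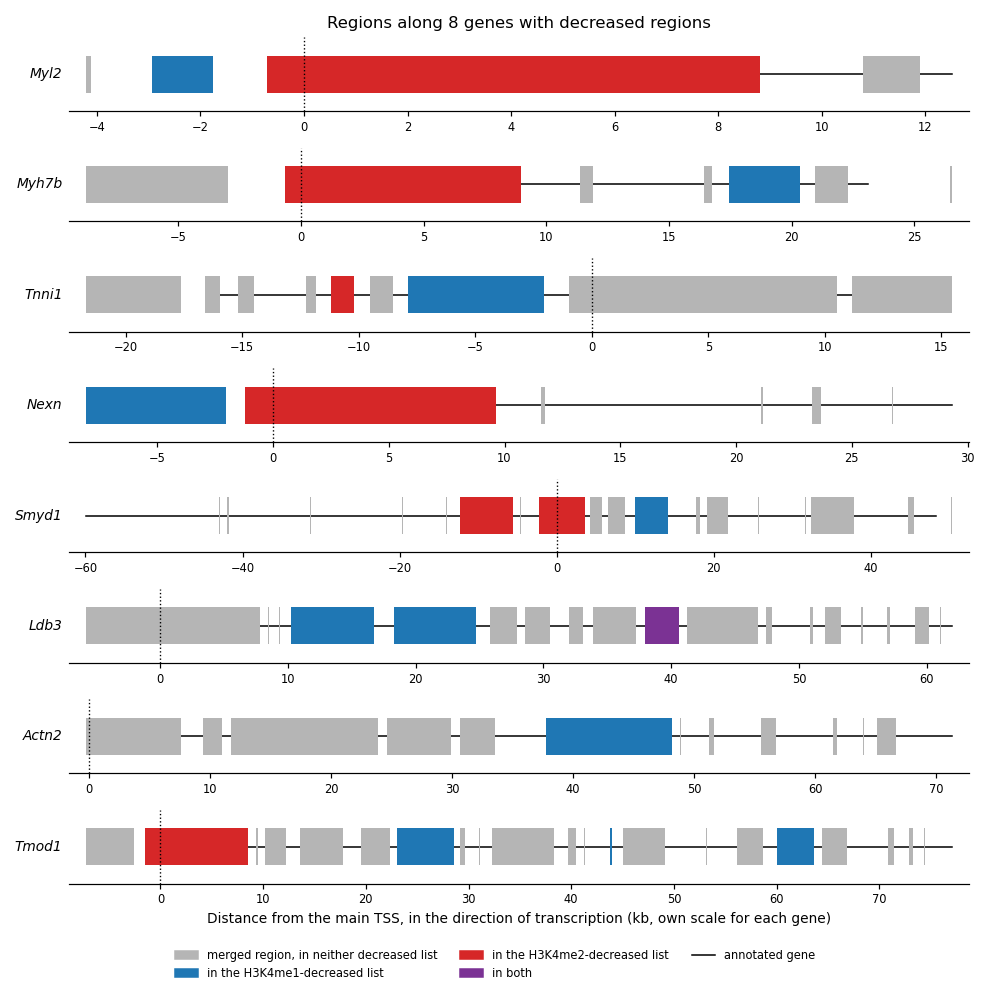
Merged regions along 8 genes with decreased regions, drawn from the main TSS in kb with a scale of its own for each gene. Red is H3K4me2-decreased, blue H3K4me1-decreased, purple both, and grey neither. In *Myl2*, *Myh7b*, *Nexn*, *Smyd1* and *Tmod1* the TSS region is red and a region elsewhere is blue, and in *Actn2* the only decreased region lies 37.7 kb downstream.

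Of the 8 genes with both kinds of decrease, 5 had H3K4me2 lower over the TSS and H3K4me1 lower elsewhere, and in *Tnni1*, *Myom1* and *Ldb3* the H3K4me2-decreased region was intronic. At these 5 of the 13 genes with an H3K4me2-decreased TSS region (38.5%), a separate region was H3K4me1-decreased: *Myl2*, *Myh7b*, *Tmod1*, *Nexn* and *Smyd1*. Among coding genes with such a TSS region the share was 7.71% (355 genes), and by width class 1.8 of the 13 would have had such a region. Of the 29 sarcomere genes without an H3K4me2 decrease, 6 (20.7%) had an H3K4me1 decrease, against 5.91% of the 14284 coding genes without one and 3.75 of the 29 by width class.

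Sequences of 4 decreased regions outside the TSS are shown as examples. They are the middle of the *Ldb3* region in both lists (chr14:35362416-35362715, minus), the middle of the region upstream of *Myl2* in the H3K4me1 list (chr5:122548466-122548765, plus), and the whole 60 bp regions of *Mybpc3* in the H3K4me1 list (chr2:90969566-90969625, plus) and of *Myom1* in the H3K4me2 list (chr17:71435206-71435265, plus). All are from NCBIM37, read 5′ to 3′ on the strand of the gene, and lie outside annotated exons. None of these letters matched the 5 motifs searched, so there are no capitals. Each region was the narrowest decreased region of its gene, or for *Ldb3* the one in both lists. The choice therefore does not rank the calls by strength.
Ldb3: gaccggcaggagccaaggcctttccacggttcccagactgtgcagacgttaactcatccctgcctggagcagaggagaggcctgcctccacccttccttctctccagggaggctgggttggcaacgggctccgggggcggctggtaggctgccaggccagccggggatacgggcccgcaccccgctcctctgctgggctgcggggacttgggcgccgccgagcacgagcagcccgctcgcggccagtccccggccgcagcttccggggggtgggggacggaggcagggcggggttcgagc
Myl2: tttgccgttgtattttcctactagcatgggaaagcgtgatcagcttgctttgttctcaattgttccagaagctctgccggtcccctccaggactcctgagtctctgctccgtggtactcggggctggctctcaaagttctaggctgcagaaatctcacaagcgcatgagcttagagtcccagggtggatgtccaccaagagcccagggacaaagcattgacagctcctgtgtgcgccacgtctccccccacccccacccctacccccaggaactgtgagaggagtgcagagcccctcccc
Mybpc3: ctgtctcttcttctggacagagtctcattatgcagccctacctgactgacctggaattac
Myom1: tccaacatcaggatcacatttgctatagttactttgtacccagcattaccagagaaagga

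CpG content at the TSS was measured apart from the lists, as the observed over expected number of CpG dinucleotides in the 500 bases on either side of the main TSS. The 45 genes had a median of 0.24, against 0.69 over 15751 coding genes, and 35 of them (77.8%) were below 0.4, as were 18.7% of coding genes. Exceptions above 0.6 were *Pdlim5* (0.89), *Tmod1* (0.8), *Des* (0.71), *Obsl1* (0.7), *Flnc* (0.66), *Fhl2* (0.66) and *Tpm1* (0.61). Among other coding genes the share with a TSS inside an H3K4me2-decreased region rose with CpG content, from 11.9% below 0.4 to 40.8% from 0.7 upwards, and with width. In the 35 sarcomere genes below 0.4 it was 25.7% (9 genes). When those with TSS regions of at least 5000 bp were taken, it was 30.0% (9 of 30), against 27.8% of 810 other genes. Summed over 5 classes of width alone, 18.3 of the 45 genes would have had an H3K4me2-decreased TSS region, over 5 classes of CpG content alone 6.98, and over both 13.1, and 13 had one. For H3K4me1 the values were 1.17, 1.19 and 2.4, and 4 had one, or 2 by starts of protein-coding transcripts. Wide TSS regions were thus joined with CpG-poor sequence in these genes, and which of these measures was used decided whether the H3K4me2 count lay above, at or below that of other genes.

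**Figure D5:**
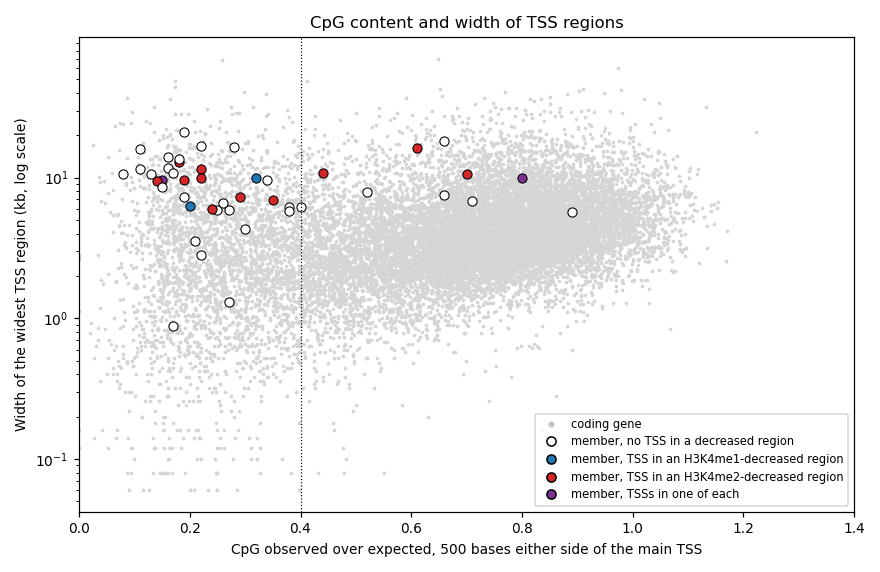
CpG observed over expected in the 500 bases on either side of the main TSS against the width of the widest TSS region in kb on a log scale. Grey points are 15751 coding genes and circles are the 45 genes, filled where a TSS lies in a decreased region. The dotted line at 0.4 separates 35 of the 45 genes, on the left, from the bulk of coding genes.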

How the data were processed

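Hearts were profiled by ChIP-Seq as described above, and groups were taken from sample titles. Per the submitters' processing notes the tools were CASAVA 1.8.2, FastQC, Bowtie, Bowtie2 and SAMtools, with genome build mm9. The authors called and merged peaks over replicates and marks and deposited 3 lists of region positions (other values: chromosome, start and end, in bp), of which 2 hold decreased regions below a false discovery rate of the authors' choice. The peak caller, filters and test behind the lists are not given in the sources used here. The depth per library and per region is unknown, so no interval was formed.

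Positions were converted to 1-based coordinates. Genes, transcripts and exons came from GENCODE vM1 (NCBIM37). A region counted as decreased where it was identical to a region of a decreased list, and every decreased region was identical to a merged one. The main TSS was the start with the most coding transcripts inside the widest TSS region. A second annotated *Tnnc1* entry that runs over neighbouring genes was left out. *Klhl40* and *Klhl41* are listed under older symbols. Expected counts sum the share of other coding genes called in the same class. Scripts used Python 3.11.15, numpy 2.4.6 and matplotlib 3.10.9, and were tested on simulated regions of 1000 genes with known answers, where 7 of 7 checks passed.

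The members, lists and roles were chosen with earlier results of these data known. Named in the text are all genes with a decreased region, the 5 widest and 3 narrowest TSS regions and the 5 genes with the most regions, and the genes without a decrease are listed by role. The CpG classes, the motifs and the printed sequences were chosen after the data were seen. Some neighbouring and related genes are not reported here by name.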

Additional observations from a re-analysis of the deposited data

How the results depend on the processing

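Of 35 alternatives over 9 values, 32 stayed within 1.5 times the reported value and 3 did not. The genes with a decreased H3K4me2 region numbered 13 to 18 and those with a decreased H3K4me1 region 11 to 15, for a margin of 1 or 10 kb, the gene body alone, coding transcripts, regions of at least 500 bp, any or 50% reciprocal overlap, and regions of 1 coding gene. The last left 38 of the 45 genes with a region, with 13 called for H3K4me2 (21.8% of coding genes) and 12 for H3K4me1 (7.31%). Genes with a TSS inside an H3K4me1-decreased region fell from 4 to 2 when only starts of coding transcripts counted. Expected counts by class, an alternative added after seeing the data, moved from 18.3 to 6.98 for H3K4me2 with 5 CpG classes in place of 5 width classes, and from 1.17 to 2.4 for H3K4me1 with both kinds of class. The cause was not tested. No paired analysis was possible because the lists carry no value per replicate, and for the same reason no replicate could be left out. The unknown depth limits what a region outside a list can say.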

Other observations

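Other striated muscle genes were set beside the 45. Of 18 skeletal isoforms, such as the fast myosins and troponins, 12 had a TSS inside a merged region, with a median width of 3320 bp, close to the 3720 bp over coding genes. H3K4me2-decreased regions were found at 3 of the 18, or 16.7%, against 28.7% of coding genes (*Myl1*, *Tnnt1* and *Myoz1*), of which only that of *Myl1*, a skeletal light chain, held its own TSS (3180 bp). The region of *Myoz1* is the one counted for *Synpo2l*, and that of *Tnnt1* held the TSS of *Ppp1r12c*. *Tnnt3* had an H3K4me1-decreased region of 2860 bp.

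Of 21 other genes of striated muscle, 20 had a TSS region, with a median of 6700 bp, 8 (38.1%, against 28.7%) had an H3K4me2-decreased region and 5 (23.8%, against 7.08%) an H3K4me1-decreased one. H3K4me2 was lower over the TSS of *Bag3*, a co-chaperone of the Z-disc, in a region of 21100 bp, and over those of the small heat shock genes *Hspb8* (16360 bp) and *Hspb7* (8800 bp). *Fhl1*, a LIM protein, had such a region of 7080 bp. H3K4me1 was lower over a TSS of *Mybphl* (7140 bp) and *Palld*, palladin (8420 bp). These lists were chosen with earlier results of these data known.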
